A study of Rattus norvegicus with 16 samples.

Results

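The matricellular genes described here are Postn, Spp1, Thbs1, Thbs2, Thbs4, Tnc, Sparc, Ccn1, Ccn2 and Chi3l1, which are named together for their expression in activated fibroblasts. The 10 genes were chosen from what earlier work on these same arrays had shown, so their values are a description, and no p is given for them. Counts of them past a threshold are likewise a description and not a test. A gene was measured where a probe set of the array, a group of short probes for 1 transcript, is annotated with that gene's symbol alone. This held for 9 of the 10 genes and 10 probe sets, out of 14217 genes and 20826 probe sets with a single symbol. Sparc has 2 probe sets, the other 8 measured genes have 1 each, and the expression of Thbs1 was not analysed here.

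The arrays measured RNA of the left ventricle (LV) of adult male Sprague-Dawley rats, with 4 arrays in each of 4 groups. The ACF groups had an aortocaval fistula, a surgical shunt from aorta to vena cava that overloads the heart with volume, for 8, 16 or 24 weeks. The study places compensated hypertrophy (CH) at 8 weeks and heart failure (HF) at 16 weeks. The sample titles call the control group baseline, whereas the study describes sham controls. If the control rats were killed at baseline, their younger age and lack of surgery cannot be told apart from the effect of ACF. The study had separate sham controls for 8 and 16 weeks, but these arrays hold 1 control group for all ACF times. Even sham controls of 1 age could therefore match only 1 of these times. Age and time after ACF also cannot be told apart between the ACF groups. For the 24-week group the label descriptions give 24, 25, 26 and 27 weeks, 1 for each array. All groups are of 1 strain and 1 sex, and the tissue holds all cell types of the ventricle, so more cells of a type and more RNA per cell cannot be told apart.

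Matricellular proteins are secreted into the extracellular matrix but do not build its fibres. They bind collagens, growth factors and cell surface receptors such as integrins, and they change how cells attach, migrate and lay down matrix. In the healthy adult heart most of them are made at low levels, and they return after injury or overload, largely from fibroblasts that have been activated. Osteopontin, the product of Spp1, and the chitinase-like protein of Chi3l1 are also known products of macrophages.

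Values are log2 intensities, as the authors deposited them, minus the median of all probe sets on the same array, so 0 is the median probe set and 1 unit is a doubling. Differences between group means are on the same log2 scale, with the standard error (SE) of a limma model fitted to all 16 arrays. The array medians before centring lay at 2 levels. All 4 control arrays, ACF 8-week replicates 1, 3 and 4 and ACF 16-week replicates 1 and 2 had medians from 6.13 to 6.17. ACF 8-week replicate 2, ACF 16-week replicates 3 and 4 and all 4 ACF 24-week arrays had medians from 5.92 to 5.96. The reason is not given in the sources used here. At 16 weeks 1123 probe sets rose and 575 fell against control at an adjusted p under 0.05, against 9 and 1 at 8 weeks and 84 and 52 at 24 weeks. With the values as deposited, in which the median of the arrays shifts against control by -0.06, -0.12 and -0.21 in order of time, 462 rose and 1259 fell at 16 weeks, so the balance of directions over all probe sets depends on the centring. The 3 comparisons share the same control arrays.

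Several patterns were seen among the measured genes. Postn, Thbs4, Ccn2 and Chi3l1 had higher means than control at all 3 times, with the mean highest at 16 weeks. Spp1 and Tnc were high mainly at 16 weeks. Sparc and Thbs2 were nearly level across the groups, and Ccn1 had its highest values in 2 of the 8-week arrays. The plot of values by array shows that the 16-week group also had the widest spread for Spp1 and Tnc.

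**Figure D1:**
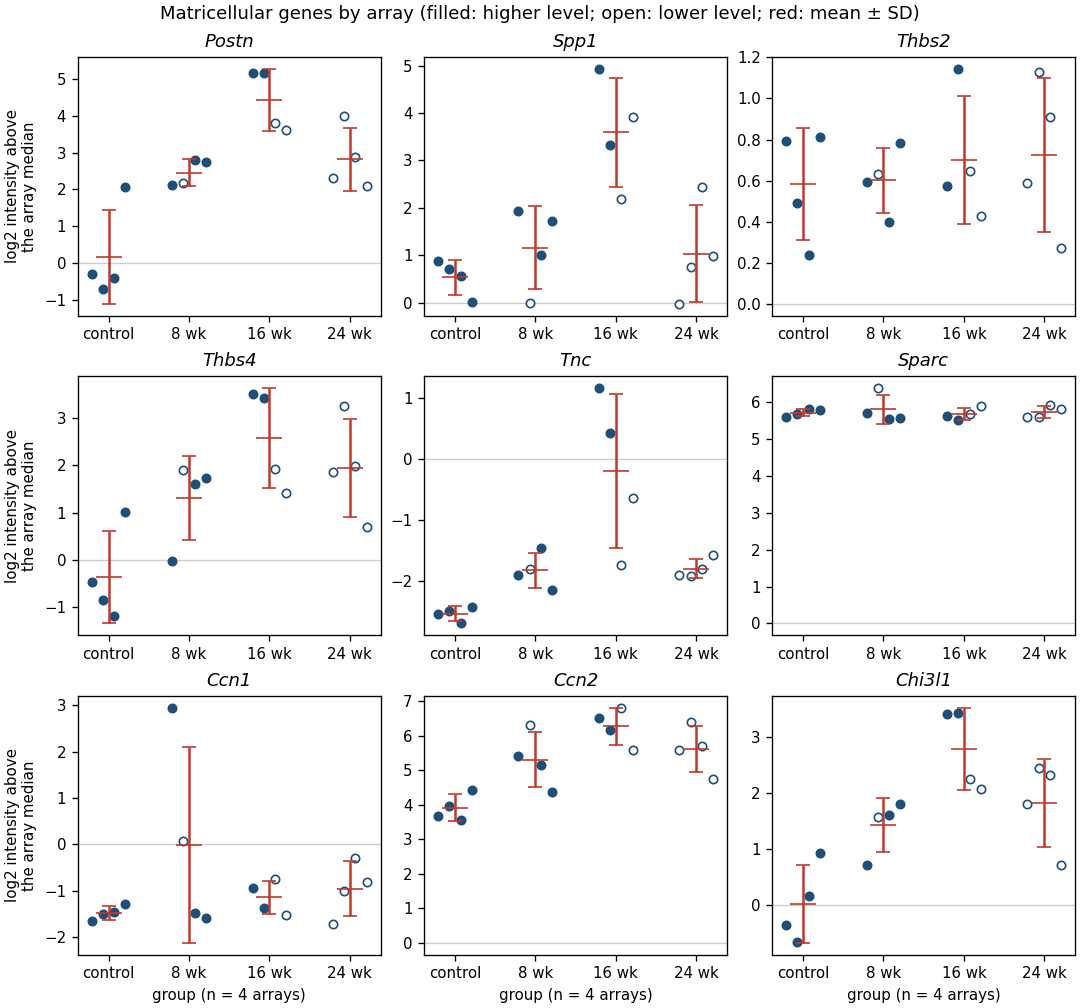
Log2 intensity above the array median (vertical axis, a separate scale for each gene) of the 9 measured genes in control and at 8, 16 and 24 weeks after ACF (horizontal axis, n = 4 arrays per group), with Sparc shown by its brighter probe set. Filled points are the 9 arrays at the higher median level and open points the 7 at the lower level, red lines are mean ± SD, and all 16-week arrays of Postn, Spp1, Thbs4, Tnc, Ccn2 and Chi3l1 lie above all control arrays.

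Postn encodes periostin, a protein of the fasciclin family that binds integrins and collagen and is a classical product of activated cardiac fibroblasts. Its probe set (1373911_at) read -0.30, -0.71, -0.41 and 2.07 in the control arrays. At 8 weeks it read 2.12, 2.17, 2.79 and 2.75, at 16 weeks 5.17, 5.17, 3.81 and 3.63, and at 24 weeks 2.31, 4.01, 2.88 and 2.09. Every ACF array lay above every control array, although control replicate 4 came close to the lowest of them. The mean was higher than in control by 2.29 at 8 weeks (SE 0.53, 4.91-fold), by 4.28 at 16 weeks (19.4-fold) and by 2.66 at 24 weeks (6.32-fold). This was the highest 16-week difference of the 10 probe sets. The 16-week arrays also lay above all 8-week arrays, with a mean higher by 1.99, whereas the ranges at 8 and 24 weeks overlapped. Without control replicate 4, the differences from control were 2.93, 4.92 and 3.30.

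Thbs4 encodes thrombospondin-4, a member of the thrombospondin family found in tendon, muscle and the loaded heart. The control arrays read -0.45, -0.85, -1.19 and 1.02 for its probe set (1388138_at), so replicate 4 again stood above the others. The ACF arrays read -0.015, 1.90, 1.60 and 1.73 at 8 weeks, 3.52, 3.43, 1.93 and 1.42 at 16 weeks, and 1.85, 3.25, 1.99 and 0.70 at 24 weeks. All 16-week arrays lay above all control arrays, while 8-week replicate 1 and 24-week replicate 4 fell within the control range. The mean differences from control were 1.67 (SE 0.59, 3.19-fold), 2.94 (7.68-fold) and 2.31 (4.98-fold) in order of time. The ranges of the 3 ACF groups overlapped, so the order of their means is not separated by the arrays.

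Ccn2 encodes connective tissue growth factor, a CCN family protein induced by TGF-beta and by mechanical load. It was among the brightest probe sets here (1367631_at), with a mean above 97.9% of all probe sets. Control arrays read 3.67, 3.97, 3.56 and 4.43. At 8 weeks the values were 5.40, 6.32, 5.16 and 4.36, at 16 weeks 6.51, 6.17, 6.81 and 5.58, and at 24 weeks 5.58, 6.39, 5.70 and 4.76. The 16- and 24-week arrays lay above all control arrays, and at 8 weeks only replicate 4 did not. The mean was higher than control by 1.40 (SE 0.37, 2.64-fold) at 8 weeks, 2.36 (5.12-fold) at 16 weeks and 1.70 (3.24-fold) at 24 weeks. The ranges of neighbouring ACF groups overlapped.

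Chi3l1 encodes a chitinase-like protein that binds the receptor IL-13Ra2 and lacks enzyme activity. Its probe set (1392171_at) read -0.36, -0.65, 0.17 and 0.93 in control. It read 0.72, 1.58, 1.61 and 1.81 at 8 weeks, 3.43, 3.44, 2.26 and 2.07 at 16 weeks, and 1.81, 2.46, 2.33 and 0.72 at 24 weeks. The 16-week arrays lay above all control and all 8-week arrays, and 1 array each at 8 and 24 weeks fell within the control range. The mean differences from control were 1.41 (SE 0.41, 2.65-fold), 2.78 (6.86-fold) and 1.81 (3.50-fold).

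Spp1 encodes osteopontin, an integrin- and CD44-binding phosphoprotein made by macrophages, fibroblasts and bone cells. Its probe set (1367581_a_at) read 0.87, 0.71, 0.55 and 0.02 in control and 4.93, 3.33, 2.18 and 3.92 at 16 weeks. At 8 weeks it read 1.93, -0.02, 1.00 and 1.73, and at 24 weeks -0.03, 0.74, 2.44 and 0.99. The 16-week arrays lay above all control and all 8-week arrays, and 1 array at 8 weeks and 1 at 24 weeks read below every control array. The mean difference from control was 3.06 (SE 0.54, 8.31-fold) at 16 weeks, against 0.62 (1.54-fold) at 8 weeks and 0.50 (1.41-fold) at 24 weeks. From 16 to 24 weeks the mean was lower by 2.56, and the ranges overlapped only through 16-week replicate 3 and 24-week replicate 3. Both smaller differences moved with single arrays. The 8-week difference was 0.37 without 8-week replicate 1 and 1.02 without replicate 2. The 24-week difference was 0.03 without 24-week replicate 3, 0.85 without replicate 1 and 0.32 without control replicate 4.

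Tnc encodes tenascin-C, a large glycoprotein that is sparse in the adult heart and reappears at sites of injury. Its probe set (1373401_at) was dim, with a mean above only 23.4% of all probe sets. Control arrays read -2.54, -2.49, -2.70 and -2.43, a narrow range. The values come without detection calls, so it is not known whether these control signals were above background, and folds against them may understate the difference. The 16-week arrays read 1.17, 0.42, -1.74 and -0.64, so replicate 3 lay far below replicates 1 and 2. The 8-week values were -1.91, -1.80, -1.46 and -2.15 and the 24-week values -1.90, -1.92, -1.80 and -1.58, all above the control arrays but below the array median. The mean differences were 0.71 (SE 0.39, 1.64-fold), 2.34 (5.08-fold) and 0.74 (1.67-fold), and the ranges at 8 and 24 weeks overlapped.

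Ccn1 encodes CYR61, a CCN family protein that responds rapidly to growth factors and stretch. Control arrays read -1.65, -1.51, -1.45 and -1.29 for its probe set (1368290_at, mean above 34.9% of probe sets). At 8 weeks replicate 1 read 2.95 and replicate 2 read 0.07, while replicates 3 and 4, at -1.48 and -1.58, lay within the control range. The 16-week values were -0.93, -1.37, -0.75 and -1.51 and the 24-week values -1.72, -0.99, -0.28 and -0.82. The 8-week mean was higher than control by 1.46 (SE 0.66, 2.76-fold), and by 0.48 without replicate 1. At 16 and 24 weeks the differences were 0.33 and 0.52, both smaller than their SE. Leaving out each array gave 0.20 to 0.46 at 16 weeks and 0.30 to 0.78 at 24 weeks, both lowest without replicate 3 of the group.

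Sparc encodes a collagen-binding glycoprotein that takes part in procollagen processing, and it was bright at every time. The probe set with the higher mean (1367563_at, above 98.6% of probe sets) ranged from 5.59 to 5.80 in control, 5.55 to 6.38 at 8 weeks, 5.51 to 5.89 at 16 weeks and 5.59 to 5.91 at 24 weeks. Its differences from control were 0.09, -0.04 and 0.01 (SE 0.15). The other probe set (1367562_at) gave 0.27, 0.02 and -0.10 (SE 0.21), and the groups overlapped in both. The highest value of the brighter probe set, 6.38, was that of 8-week replicate 2.

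Thbs2 encodes thrombospondin-2, an inhibitor of angiogenesis that also takes part in collagen fibril assembly. Its probe set (1385751_at) ranged from 0.24 to 0.81 in control, 0.40 to 0.78 at 8 weeks, 0.43 to 1.14 at 16 weeks and 0.27 to 1.13 at 24 weeks. The differences from control were 0.02, 0.12 and 0.14 (SE 0.18), and the groups overlapped. With the values as deposited, without centring, these turned to -0.04, -0.00 and -0.07. Within the thrombospondin family, Thbs2 and Thbs4 thus had different profiles over the same arrays.

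**Figure D2:**
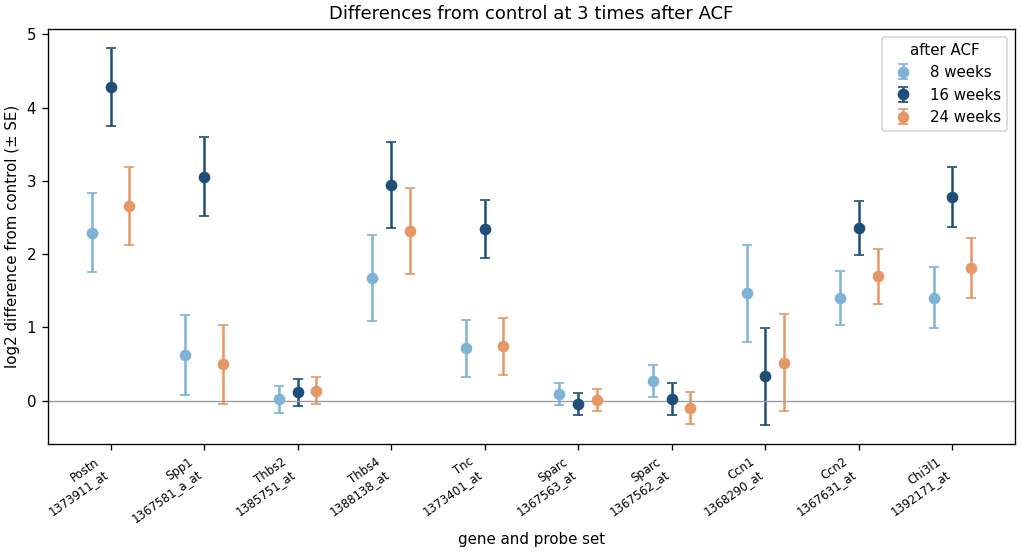
Difference of the mean log2 intensity from control (vertical axis) for each of the 10 probe sets of the 9 measured genes (horizontal axis) at 8, 16 and 24 weeks after ACF, n = 4 arrays per group, with bars of ± SE from the model. The 16-week difference is the highest of the 3 for Postn, Spp1, Thbs4, Tnc, Ccn2 and Chi3l1, and lies near 0 for Thbs2 and both Sparc probe sets.

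Over the 9 genes the median difference from control was 1.40, 2.36 and 0.74 in order of time, and over all genes it was -0.00, -0.00 and 0.00. Counts of the matricellular probe sets are given beside the share of all probe sets only to describe them, since the genes were chosen from these comparisons. At 8 weeks all ACF arrays lay above all control arrays for 2 of 10 (Postn and Tnc), and for 2.74% of all probe sets. At an adjusted p under 0.05, 0 of 10 were higher by limma at 8 weeks, where 5 of 10 and 6.21% of all probe sets had an unadjusted p under 0.05 and the methods' t-test, an unpaired test of the arrays compared, gave 0 after adjustment. The share of all probe sets called higher was 0.029%, and 0.0352% of genes. At 16 weeks 6 of 10 were past the threshold by limma, and 0 of 10 by the methods' unpaired test after adjustment. At that time 6 of 10 did not overlap with control. Beside them 3.62% of all probe sets and 4.92% of genes were called higher by limma, and 7.64% of probe sets did not overlap. At 24 weeks 1 of 10 (Postn) was past the threshold by limma, and 0 of 10 by the methods' unpaired test after adjustment. The shares called higher by limma were 0.271% of probe sets and 0.415% of genes. At 24 weeks 3 of 10 (Postn, Tnc and Ccn2) did not overlap, beside 4.32% of probe sets.

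Between the ACF groups the same genes set the order. The 16-week arrays lay above all 8-week arrays for Postn, Spp1 and Chi3l1, 3 of 10 probe sets, as for 2.25% of all probe sets. The mean was higher at 16 than at 8 weeks by 1.99 for Postn, 2.43 for Spp1, 1.63 for Tnc, 1.37 for Chi3l1, 1.27 for Thbs4 and 0.96 for Ccn2. For Thbs4 it was 0.83 without 8-week replicate 1 and 2.37 in the higher-level arrays. For Tnc it was 1.18 without 16-week replicate 1 and 2.15 without 16-week replicate 3. In the higher-level arrays, which hold only replicates 1 and 2 of the 16-week group, it was 2.63 for Tnc. Limma called 0 of all probe sets between 16 and 8 weeks (0%), where 2195 had an unadjusted p under 0.05 and the methods' t-test called 0 after adjustment. From 16 to 24 weeks the means were lower by 1.62 for Postn, 2.56 for Spp1, 1.60 for Tnc, 0.97 for Chi3l1, 0.66 for Ccn2 and 0.63 for Thbs4. There 4 probe sets in all were called (0.0129%) and 0 of the 10 were among them. Of the 10, 4 had an unadjusted p under 0.05 there and 6 between 16 and 8 weeks, beside 7.81% and 7.07% of all probe sets. These counts only describe the 10, since the genes were chosen from these same arrays. Without 24-week replicate 4 the differences were -0.21 for Thbs4, -0.38 for Ccn2 and -0.60 for Chi3l1. Leaving out each array gave -1.06 (without 24-week replicate 2) to -0.21 for Thbs4, which was -0.31 and -0.34 without 16-week replicates 1 and 2 and -1.01 without 16-week replicate 4.

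Single arrays and array levels moved with these values. Control replicate 4 was the highest control array for 7 of the 9 genes. In the 16-week group, replicates 1 and 2, both at the higher array level, were the highest for 3 genes each, and replicate 4, at the lower level, was the lowest for 6. In the 24-week group replicate 2 was the highest for 5 genes and replicate 4 the lowest for 5. Within the 9 arrays of the higher level, the 16-week differences from control were 5.01 for Postn, 3.60 for Spp1, 3.84 for Thbs4, 3.34 for Tnc, 2.43 for Ccn2 and 3.41 for Chi3l1, none smaller than over all arrays. In a model with a block for the level they were 4.78, 3.70, 3.29, 2.91, 2.11 and 3.10.

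At 24 weeks the array level mattered more. No level holds both control and 24-week arrays, so a block for the level rests there on the 8- and 16-week arrays alone. With that block, the 24-week differences from control were 1.79 in place of 0.50 for Spp1, 1.86 in place of 0.74 for Tnc, 3.66 in place of 2.66 for Postn and 2.44 in place of 1.81 for Chi3l1. The difference for Ccn2 was smaller with the block than without it, by less than 1.5 times. Among the 7 arrays at the lower level, which hold 2 arrays of 16 weeks and 4 of 24 weeks, the difference of 24 from 16 weeks was -2.02 for Spp1, -0.89 for Postn, -0.61 for Tnc, -0.59 for Ccn2, -0.34 for Chi3l1 and 0.27 for Thbs4. The sign turned for Thbs4, and the sizes for Postn, Tnc and Chi3l1 were smaller than over all arrays by over 1.5 times.

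**Figure D3:**
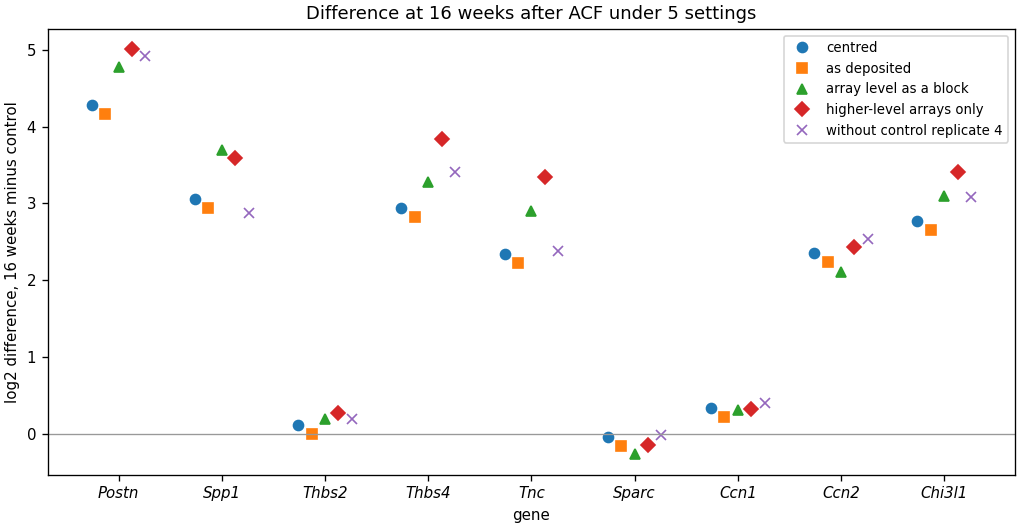
Difference of the mean log2 intensity at 16 weeks after ACF from control (vertical axis) for the 9 measured genes (horizontal axis) under 5 settings, namely centred arrays, values as deposited, a block for the array level, only the 9 arrays at the higher level, and without control replicate 4. Postn, Spp1, Thbs4, Tnc, Ccn2 and Chi3l1 stay above 2 under every setting shown. Leaving out ACF 16-week replicate 1, which is not drawn, gave 1.89 for Tnc.

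The promoters of the 4 genes that were high at all 3 times, and of Ccn1 as the family relative of Ccn2 with another profile, are shown to compare the short motifs they hold. Each sequence is the 250 bases before the transcription start in RefSeq (rat assembly GRCr8), read 5′ to 3′ along the gene, and the capitals mark matches to the motifs searched. These were GGAATG for TEAD factors, which act with YAP, and CAGAC for SMAD factors, which act below TGF-beta, each on both strands (CATTCC and GTCTG on the other strand), and TGANTCA for AP-1. The intervals are chr2:140677811-140678060 (plus strand) for Postn, chr2:25760346-25760595 (minus strand) for Thbs4, chr1:22624615-22624864 (minus strand) for Ccn2, chr13:48193589-48193838 (plus strand) for Chi3l1 and chr2:237225690-237225939 (minus strand) for Ccn1.
Postn: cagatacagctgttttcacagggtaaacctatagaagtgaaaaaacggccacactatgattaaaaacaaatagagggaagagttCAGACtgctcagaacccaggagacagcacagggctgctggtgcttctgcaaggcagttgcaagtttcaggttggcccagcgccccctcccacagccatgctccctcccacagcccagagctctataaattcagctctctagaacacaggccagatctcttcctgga
Thbs4: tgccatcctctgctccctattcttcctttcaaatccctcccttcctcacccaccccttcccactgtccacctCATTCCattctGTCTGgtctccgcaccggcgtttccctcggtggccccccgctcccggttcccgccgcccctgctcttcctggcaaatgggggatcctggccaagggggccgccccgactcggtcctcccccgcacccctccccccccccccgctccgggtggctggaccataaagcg
Ccn2: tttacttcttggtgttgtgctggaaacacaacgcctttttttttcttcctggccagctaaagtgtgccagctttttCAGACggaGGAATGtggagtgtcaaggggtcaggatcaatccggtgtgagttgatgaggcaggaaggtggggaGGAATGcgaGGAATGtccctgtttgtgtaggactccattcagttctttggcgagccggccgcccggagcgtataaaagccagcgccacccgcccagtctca
Chi3l1: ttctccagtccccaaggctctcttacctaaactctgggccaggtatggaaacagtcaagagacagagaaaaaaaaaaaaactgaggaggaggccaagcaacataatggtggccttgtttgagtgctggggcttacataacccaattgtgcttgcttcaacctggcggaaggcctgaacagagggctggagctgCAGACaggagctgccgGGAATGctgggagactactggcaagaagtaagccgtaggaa
Ccn1: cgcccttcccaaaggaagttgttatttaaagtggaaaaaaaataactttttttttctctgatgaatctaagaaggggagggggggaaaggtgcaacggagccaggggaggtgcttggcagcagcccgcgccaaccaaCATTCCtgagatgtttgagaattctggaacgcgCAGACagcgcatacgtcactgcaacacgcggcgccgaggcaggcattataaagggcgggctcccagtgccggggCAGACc

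Of the 10 genes, 9 have a promoter in the table used, all but Thbs2. TEAD letters were found in 6 of 9, namely Thbs1, Thbs4, Sparc, Ccn1, Ccn2 and Chi3l1, and in 12.1% of all 33469 promoters of the same length. Ccn2 held 3 of them, starting 166, 101 and 92 bases before the start site, and Ccn1 held 1, starting 113 bases before it. The SMAD letters were found in 8 of 9, all but Thbs1, and in 42.9% of all promoters. The AP-1 letters were found in 0 of 9 and in 6.34% of all promoters, which says only that they are not in these windows. Postn, Spp1 and Tnc, which were high at 16 weeks, held no TEAD letters and 1 SMAD match each, and Sparc, which was nearly level, held both motifs. These matches are letters in a window and not sites of binding.

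Other genes of the same protein families were taken from a list drawn up by family. This list and the lists of receptors, regulators and cell type markers below were made with earlier results of these data known. Their counts and p values thus describe these arrays and are no independent test. Of 23 such genes 21 were measured, all but Tnxb and Spock2. At 16 weeks 3 of the 21 rose and 0 fell, by limma with Benjamini-Hochberg adjustment over all probe sets, where 4.92% of all genes rose, and 0 of the 21 passed by the methods' t-test after adjustment. Ccn5, a CCN protein known to oppose CCN2, rose by 2.26 (SE 0.46, adjusted p = 0.0087), from -1.11 to 0.07 in control to 0.65 to 2.62 at 16 weeks. Ccn3, another CCN protein, rose by 0.97 (SE 0.24, adjusted p = 0.0246). Fstl1, a secreted relative of SPARC, rose by 0.94 (SE 0.20, adjusted p = 0.0124).

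The other 18 family genes did not pass at 16 weeks. The cartilage thrombospondin Comp differed by 0.57 (SE 0.27, adjusted p = 0.259), Thbs3 by 0.28 (SE 0.10, adjusted p = 0.132), Tgfbi, the fasciclin relative of periostin, by 0.35 (SE 0.15, adjusted p = 0.203) and Ccn4 by -0.15 (SE 0.08, adjusted p = 0.325). At 8 and 24 weeks 0 of 21 passed, and the methods' t-test gave 0 after adjustment. At each time 4 of 21 had an unadjusted p under 0.05 by limma, beside 6.21% and 15.4% of all probe sets. Ccn5 differed by 1.07 at 8 weeks (SE 0.46, adjusted p = 0.732) and by 1.79 at 24 weeks (SE 0.46, adjusted p = 0.0794). The list's median difference was 0.05, 0.04 and 0.09 at 8, 16 and 24 weeks, close to the median of all genes. The call for Ccn3 was lost without any 1 of control replicates 1, 2 and 3 and ACF 16-week replicates 1 and 2 (adjusted p up to 0.0794), and with the values as deposited (0.0504).

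Receptors for these proteins were measured for 18 of 19 genes listed, all but Itga4. At 16 weeks 4 of the 18 rose and 0 fell, beside 4.92% of all genes that rose, and 0 passed by the methods' t-test after adjustment. Stab1, a scavenger receptor of macrophages that takes up SPARC, rose by 1.09 (SE 0.16, adjusted p = 0.00109), from 0.76 to 1.47 in control to 2.08 to 2.25. Itga9, an integrin chain that binds tenascin-C and osteopontin, rose by 0.82 (SE 0.16, adjusted p = 0.00841). Itgb1, the integrin chain that pairs with it, rose by 0.55 (SE 0.13, adjusted p = 0.0164), and Lrp1, an endocytic receptor for thrombospondins and CCN2, by 0.74 (SE 0.18, adjusted p = 0.0256).

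Further receptors did not pass at 16 weeks. Cd44, a receptor of osteopontin, differed by 0.49 (SE 0.16, adjusted p = 0.0811), Itgb5 by 0.42 (SE 0.14, adjusted p = 0.0807), Itgav, the partner of that chain, by 0.04 (SE 0.14, adjusted p = 0.919), and the thrombospondin receptors Cd36 and Cd47 by 0.18 and 0.25 (SE 0.11 and 0.13, adjusted p = 0.407 and 0.297). At 24 weeks 1 of 18 rose, Stab1 by 1.01 (SE 0.16, adjusted p = 0.0161), beside 0.415% of all genes. At 8 weeks 0 of 18 rose, and 0 passed by the methods' t-test after adjustment. There 4 had an unadjusted p under 0.05 by limma, beside 6.21% of all probe sets. The medians were 0.08, 0.22 and 0.15. The 16-week calls for Itgb1 and Lrp1 were lost with the values as deposited (adjusted p = 0.0833 and 0.0704) and without control replicate 1, control replicate 2 or ACF 16-week replicate 1, and that for Lrp1 also without ACF 16-week replicate 2 (adjusted p up to 0.0585 and 0.0841). The 24-week call for Stab1 was lost in the fit with a block for the level (adjusted p = 0.17) and without control replicate 1, control replicate 2 or ACF 24-week replicate 2 (adjusted p up to 0.0713).

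Of 21 listed regulators of these genes, 17 were measured, all but Tgfbr2, Yap1, Mrtfb and Runx2. At 16 weeks 1 of 17 rose and 0 fell, a share near the 4.92% of all genes that rose, and 0 passed by the methods' t-test after adjustment. Tgfb2, a ligand of the TGF-beta family, rose by 0.98 (SE 0.22, adjusted p = 0.0164), from 1.10 to 1.47 in control to 1.68 to 2.78. The other ligands Tgfb1 and Tgfb3 differed by -0.03 (SE 0.15, adjusted p = 0.944) and 0.11 (SE 0.18, adjusted p = 0.805). Smad7, an inhibitor that TGF-beta induces, differed by 0.48 (SE 0.15, adjusted p = 0.0756), Tead1, a partner of YAP, by 0.37 (SE 0.11, adjusted p = 0.0525), Wwtr1, which encodes TAZ, by 0.26 (SE 0.09, adjusted p = 0.116), and Scx, a tendon and fibroblast factor, by -0.42 (SE 0.13, adjusted p = 0.0755), none of which passed. At 8 and 24 weeks 0 of 17 passed, and 0 by the methods' t-test after adjustment. By limma 2 and 4 of the 17 had an unadjusted p under 0.05, beside 6.21% and 15.4% of all probe sets. The call for Tgfb2 was lost without control replicate 2 or ACF 16-week replicate 1 (adjusted p up to 0.0591).

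**Figure D4:**
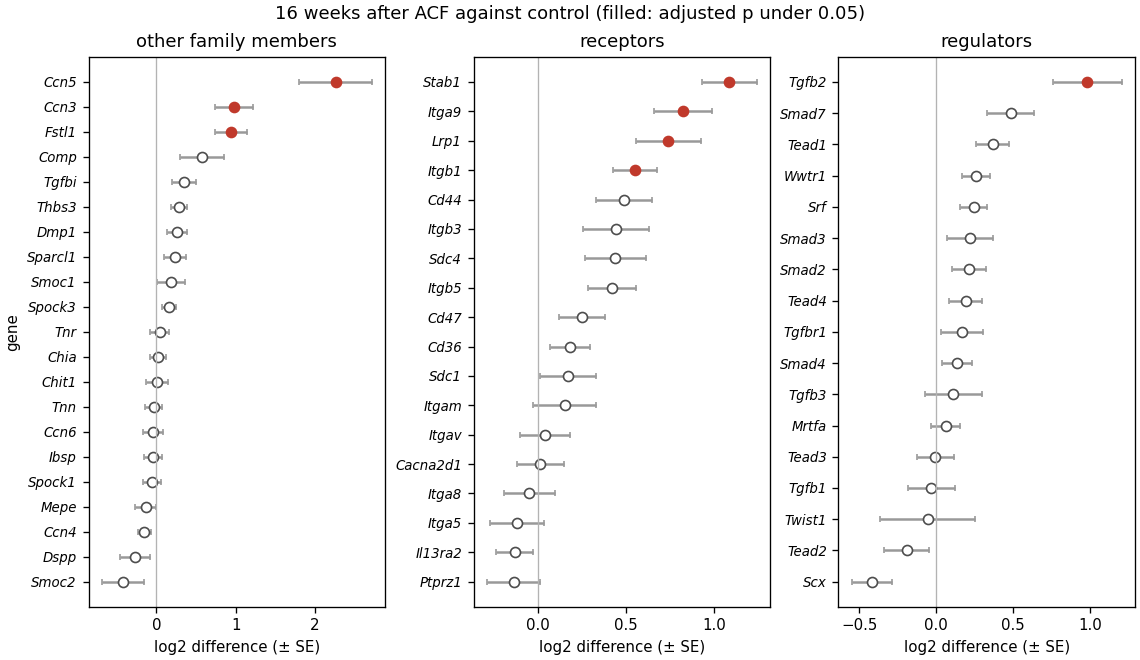
Difference of the mean log2 intensity at 16 weeks after ACF from control (horizontal axis, ± SE, n = 4 arrays per group) for the measured genes of 3 lists (vertical axis), the 21 family relatives, 18 receptors and 17 regulators. Filled points passed at an adjusted p under 0.05, and these are Ccn5, Ccn3 and Fstl1, then Stab1, Itga9, Lrp1 and Itgb1, then Tgfb2.

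Markers of cell types were read beside the matricellular genes, since the LV tissue was not sorted. The marker counts stand beside 0.0352%, 4.92% and 0.415% of all genes called higher by limma at 8, 16 and 24 weeks. An unadjusted p under 0.05 by limma was held by 6.21%, 19.5% and 15.4% of all probe sets at these times. All 12 fibroblast markers were measured, and 6 of them rose at 16 weeks and 0 fell, against 0 at 8 and 24 weeks (6 and 4 at an unadjusted p under 0.05). The methods' t-test after adjustment called 0 of the 12 at all 3 times, so the 6 calls rest on limma. Mfap5, a microfibril protein, rose by 1.30 (SE 0.20, adjusted p = 0.00151), Pi16 by 1.72 (SE 0.32, adjusted p = 0.00502) and decorin (Dcn) by 0.50 (SE 0.10, adjusted p = 0.00991), and Thy1, Col1a2 and Col3a1 also passed. The other 6 did not, among them the lineage markers Pdgfra at 0.18 (SE 0.17, adjusted p = 0.619), Tcf21 at -0.25 (SE 0.14, adjusted p = 0.348) and Ddr2 at 0.04 (SE 0.14, adjusted p = 0.917), with Gsn at 0.02, Lum at 0.18 and Col1a1 at 0.49 (adjusted p = 0.97, 0.559 and 0.187). With the values as deposited the calls for Dcn, Col1a2 and Col3a1 were lost (adjusted p = 0.0697, 0.0727 and 0.169), and with a block for the level those for Thy1 and Col3a1 (0.0765 and 0.055). Of 10 measured markers of activated fibroblasts (myofibroblasts), 5 rose at 16 weeks by limma and 0 by the methods' t-test after adjustment, for which the 5 had an adjusted p from 0.0531 to 0.191. Lox, which cross-links collagen, rose by 2.00 (SE 0.27, adjusted p = 0.000698), Col8a1 by 1.80 (SE 0.26, adjusted p = 0.00124), Ltbp2 by 1.39 (SE 0.25, adjusted p = 0.00479), fibronectin (Fn1) by 1.46 (SE 0.28, adjusted p = 0.0068) and Loxl2 by 0.66 (SE 0.15, adjusted p = 0.0191). At 24 weeks 1 of the 10 passed, Col8a1 at 1.55 (SE 0.26, adjusted p = 0.0239).

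Contractile markers that define myofibroblasts did not pass. At 16 weeks Acta2, smooth muscle actin, differed by -0.14 (SE 0.30, adjusted p = 0.854) and Tagln by 0.02 (SE 0.27, adjusted p = 0.984), and the groups overlapped. Cthrc1, another marker of activated fibroblasts, was below the array median in every array and differed by 0.12 (SE 0.12, adjusted p = 0.637). The remaining genes of the list that did not pass, Fap and Meox1, had higher means at 16 weeks. Fap differed by 0.56 (SE 0.17, adjusted p = 0.0723), with all 16-week arrays above all control arrays. Meox1 differed by 1.27 (SE 0.44, adjusted p = 0.107), and its groups overlapped. Smooth muscle cells also make Acta2 and Tagln, and the smooth muscle and pericyte list had 0 of 7 genes past the threshold at each time, with 1, 2 and 1 at an unadjusted p under 0.05 and 0 by the methods' t-test. The genes of the myofibroblast list that passed were matrix, fibril-associated and cross-linking genes. With the values as deposited the call for Loxl2 was lost (adjusted p = 0.0907). The 16-week calls for Col1a2, Col3a1, Thy1 and Loxl2 were each lost without control replicate 1 and without ACF 16-week replicate 1 or 2, among others (adjusted p up to 0.0811, 0.128, 0.0808 and 0.0615).

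Macrophage markers moved with the same groups. Of 14 measured, 11 rose at 16 weeks, 5 at 24 weeks (Mrc1, Cd163, C1qa, Csf1r and Gpnmb) and 1 at 8 weeks (Mrc1), where 12 had an unadjusted p under 0.05. By the methods' t-test after adjustment 2 of the 14 passed at 16 weeks (Csf1r and C1qa) and 0 at 8 and 24 weeks. The 8-week call for Mrc1 was lost without any 1 of 10 of the 16 arrays. The list's mean ranged from 1.28 to 1.58 in control, 2.09 to 2.39 at 8 weeks, 2.29 to 3.11 at 16 weeks and 1.81 to 2.35 at 24 weeks. Mrc1, the mannose receptor, rose by 1.72 (SE 0.19, adjusted p = 0.000232) and Gpnmb by 2.33 (SE 0.28, adjusted p = 0.000461) at 16 weeks. Cd68 and Csf1r lay above the array median in all arrays, controls included, and Cd163 in all ACF arrays. By limma Adgre1 (1.04, SE 0.31, adjusted p = 0.0633), Trem2 (0.22, SE 0.12, 0.317) and Ccr2 (0.13, SE 0.15, 0.687) did not pass at 16 weeks. Adgre1 fell below the array median in part of each ACF group (lowest -0.27, -0.09 and -0.26 in order of time). Ccr2 lay below it in every array. The part of macrophage RNA in the values of Spp1 and Chi3l1 was not tested. Of 6 measured neutrophil markers 0 passed at any time by limma or the methods' t-test, and 0 had an unadjusted p under 0.05. Their mean ranged from -1.57 to -0.79 in control, -1.67 to 0.05 at 8 weeks, -0.97 to -0.74 at 16 weeks and -1.37 to -0.73 at 24 weeks.

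The fibroblast list's mean ranged from 3.54 to 3.96 in control, 3.86 to 4.41 at 8 weeks, 4.08 to 4.33 at 16 weeks and 3.92 to 4.35 at 24 weeks, and the myofibroblast list's from 0.74 to 1.15, 1.26 to 1.58, 1.28 to 2.19 and 0.97 to 1.57. Control replicate 4, the high control array for most matricellular genes, was also the highest control array in the fibroblast list (3.96), the myofibroblast list (1.15) and the macrophage list (1.58). So it was in the neutrophil (-0.79), smooth muscle and pericyte (1.97), receptor (1.93), regulator (2.06) and family (-0.47) lists, but not in the endothelial and cardiomyocyte lists. In the 24-week group replicate 4, the low array for 5 of the matricellular genes, had the lowest myofibroblast mean (0.97) and macrophage mean (1.81). It was also the lowest in the neutrophil (-1.37), receptor (1.83), regulator (1.91) and family (-0.49) lists. In the fibroblast list replicate 1 was the lowest (3.92). The cardiomyocyte list, which identifies the tissue, had 0 of 11 genes past the threshold at each time, with 1, 3 and 0 at an unadjusted p under 0.05 and 0 by the methods' t-test. Its mean lay between 7.31 and 7.80 in every array, with the lowest value in 16-week replicate 1. Of 7 endothelial markers, 1 (Vwf) rose at 16 weeks by 1.31 (SE 0.21, adjusted p = 0.00182) and at 24 weeks by 1.19 (SE 0.21, adjusted p = 0.025). By limma 0, 3 and 3 of the 7 had an unadjusted p under 0.05 in order of time, and the methods' t-test gave 0 after adjustment. The other 6 did not pass at 16 weeks. Tie1, Egfl7 and Emcn differed by -0.61, -0.37 and -0.20, and Pecam1, Tek and Kdr by 0.19, 0.08 and 0.07. In the fit with a block for the level, none of the 24-week calls of listed genes held, namely those of Stab1, Col8a1, Vwf and the 5 macrophage markers (adjusted p from 0.0799 to 0.173).

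**Figure D5:**
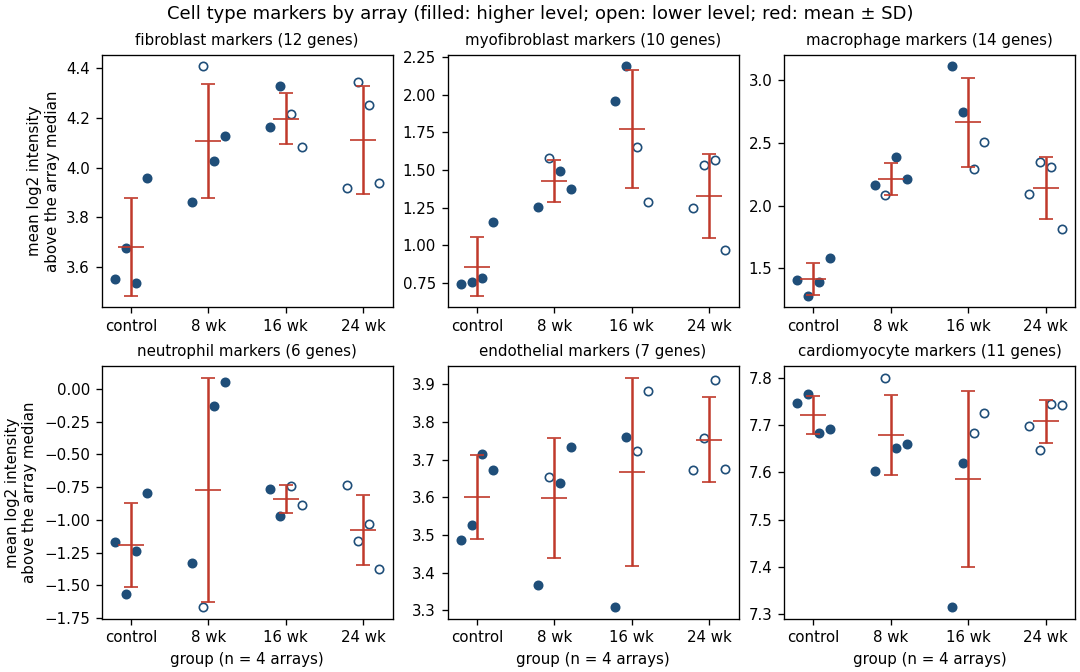
Mean log2 intensity above the array median (vertical axis, a separate scale for each list) of the measured markers of 6 cell types in control and at 8, 16 and 24 weeks after ACF (horizontal axis, n = 4 arrays per group). Filled points are arrays at the higher level, open points those at the lower level, and red lines mean ± SD, and the macrophage mean of every ACF array lies above all 4 control arrays.

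The genes with profiles most like that of Postn over the 16 arrays were Anxa2, Mfap5, Ctsk, Slc66a3, Grk5, Loxl1, Fibin, Vcan, Timp2 and Cd163. Pearson's r ran from 0.96 for Anxa2, an annexin, to 0.94 for Cd163, a scavenger receptor of macrophages, and Spearman's rho from 0.89 for Cd163 to 0.98 for Anxa2. These are descriptions over 16 arrays that share 4 groups and the same array levels, chosen out of 14217 genes. None of the 10 was another matricellular gene named here, which the rule left out. Among them, Loxl1, a collagen and elastin cross-linker, was higher than control by 1.16, 1.72 and 1.09, and Vcan, the matrix proteoglycan versican, by 0.68, 1.59 and 1.03 at 8, 16 and 24 weeks. In 9 of these genes control replicate 4 was the highest control array, all but Timp2. Postn itself read high in that array and the genes were picked for following Postn, so this count adds no support of its own.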

How the data were processed

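RNA of 16 rat left ventricles was hybridised to an Affymetrix rat array whose probe sets differ from those of the array the methods name. The authors deposited log2 intensities per probe set, made by RMA, which corrects background, equalises the arrays by quantiles and summarises probes, in Affymetrix Expression Console 1.2, and the table's values run from 2.30 to 14.69. The 57 manufacturer controls were left out, which left 31042 probe sets, of which 20826 carry 1 symbol, 436 several and 9780 none. Symbols come from the array's annotation, and 0 of them changed through gene IDs of assembly GRCr8.

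The median of each array was subtracted. The model of group means used limma 3.58.1 (R 4.3.3), and p was adjusted over all probe sets by the Benjamini-Hochberg method at 0.05. The function was tested on simulated data. A gene was represented by its probe set with the highest mean. The genes described and all gene lists were chosen with earlier results of these data known. The text names all 10 genes, list members that passed, those needed to read a count, and the 10 genes with the highest correlation with Postn. List members that did not pass were picked for their known role after their values were seen. The labels state 4 per group and do not name the animals, so p measures the spread between these arrays, and their number limits the precision. Replicates of a group differed by an SD of 0.22 to 0.41 over probe sets, so no array's values were a copy of another's. Whether any arrays share an animal cannot be told from this.

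Alternatives were the values as deposited, cyclic loess, the array level as a block or only 1 level, the replicate number as a block, array weights, 1 probe set per gene, the upper part of probe sets by mean, limma with a fold over 1.5, the methods' t-test and leaving out each array. The lower-level arrays alone and leaving out control replicate 4 as a setting of its own were chosen after seeing the data. Promoters come from RefSeq (GRCr8), without the 50 bases after the start. Figures were drawn with matplotlib 3.10.9.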

Additional observations from a re-analysis of the deposited data

Results flagged for a closer look

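Of 40 groups of 4 arrays, 1 per probe set and group, 2 held an array whose gap to the nearest other array exceeded the 95% limit of Dixon's ratio. Chance alone marks about 1 in 20 groups. Postn read 2.07 in control replicate 4, where the other control arrays read -0.30, -0.71 and -0.41, a ratio of 0.85. Thbs4 read -0.015 in ACF 8-week replicate 1, where the others read 1.90, 1.60 and 1.73, a ratio of 0.85. Without control replicate 4 the 16-week difference of Postn from control was 4.92 in place of 4.28, and without ACF 8-week replicate 1 the 8-week difference of Thbs4 was 2.11 in place of 1.67.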

How the results depend on the processing

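Of 1090 recomputed differences of the matricellular genes, 1082 moved by less than 1 SD between arrays, and 0 past the threshold changed sign. Their median was 3.34 at 16 weeks and 2.05 for 16 against 8 weeks in the higher-level arrays, in place of 2.36 and 1.27, and 1.79 in place of 0.74 at 24 weeks with the level as a block. Leaving out each array gave a median of 0.74 (without ACF 8-week replicate 1) to 1.53 at 8 weeks. The higher-level arrays hold none of 24 weeks and give no value there. Of 1071 recomputed list values, 913 still passed. Probe sets called at 8 weeks (10) were 1 as deposited and with the replicate block, 42 with the level block, 55 in the higher-level arrays, 164 with array weights, 2 by the adjusted t-test, 308 at the methods' threshold (fold over 1.5, unadjusted p) and 1 (without control replicate 1 among others) to 32 (without ACF 24-week replicate 2) leaving out each array. At 16 weeks (1698) they were 462 higher and 1259 lower as deposited, 88 by the adjusted t-test, 1030 with a fold over 1.5 and 744 (without control replicate 1) to 2100 leaving out each array. At 24 weeks (136) they were 3839 as deposited, 145 higher and 3694 lower, 4 with the level block, 865 with weights, 0 by the adjusted t-test, 648 at the methods' threshold and 4 (without control replicate 2) to 873 (without ACF 24-week replicate 4) leaving out each array. For 16 against 8 weeks (0) they were 223 in the higher-level arrays, 1 with weights, 208 at the methods' threshold and 0 to 2 leaving out each array. For 24 against 16 weeks (4) they were 1 as deposited and in the upper part by mean, 0 with cyclic loess, the level block, the replicate block, weights or 1 probe set per gene, 2 by the adjusted t-test, 165 at the methods' threshold and 0 to 14 (without ACF 8-week replicate 2) leaving out each array. Family relatives were 2 at 8 weeks at the methods' threshold, 0 at 16 weeks by the adjusted t-test, and at 24 weeks 3 as deposited (1 higher and 2 lower) and 3, all higher, with weights or at the methods' threshold (0 to 3 leaving out each array, 3 without ACF 24-week replicate 4). Receptors were 1 at 8 weeks with weights or at the methods' threshold, 2 at 16 weeks as deposited (2 to 5 leaving out each array) and 2 at 24 weeks (0 with the level block, 0 to 2 leaving out each array), and 0 at both by the adjusted t-test. Regulators at 16 weeks were 4 with weights, 2 as deposited, with loess, the level block, the higher level, 1 probe set per gene or the upper part, 0 by the adjusted t-test and 0 to 2 leaving out each array, and 1 at 24 weeks as deposited. The cause was not tested. Same-numbered arrays of other groups deviated together in 5 of 24 pairs (r over 0.1, range -0.27 to 0.24), so the replicate block pairs arrays by number only, and it moved no other count by over 1.5 times.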
